A study of Bos taurus with 18 samples.

Results

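The wall of the bovine preovulatory follicle and the cells shed into its fluid were compared after the luteinizing hormone (LH) surge. Theca of 3 follicles was set against granulosa aspirated from the antrum of the same 3 follicles, within each cow. These are 6 of the 18 arrays of the series, and all 24016 probe sets other than the manufacturer's controls entered the comparison. RNA was measured on Affymetrix 3' expression arrays. Cows A, B and C each gave 1 dominant follicle 22 h after gonadotropin-releasing hormone (GnRH), which was given to set off the surge. The growth protocol in the labels counts the 22 h from the surge itself, so the clock differs between the sources. Follicles of cows D, F and G came before the surge, from ovaries sampled prior to GnRH, and from every follicle a membrane-associated granulosa sample was also taken. Breed and age of the cows, and the way theca was freed of granulosa, are not given in the sources used here. Replicates are separate cows, 3 per group.

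The theca is the vascular, steroid-making layer outside the basement membrane of the follicle. It holds theca cells, fibroblasts, smooth muscle, vessels and leukocytes. The granulosa lies inside that membrane, has no vessels before ovulation, and makes oestradiol from androgens that come from the theca. The surge ends oestradiol synthesis, stops granulosa cell division, starts prostaglandin synthesis and tissue remodelling, and turns both layers toward progesterone.

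Levels are log2 signals, which ran from 2.29 to 14.9 on the 18 arrays, with array medians between 5.74 and 5.86. A difference is theca minus antral granulosa on the log2 scale, so 1 is 2-fold and 4 is 16-fold, and ± gives the standard error of the fit (n = 3 cows). That error uses a spread which all 6 groups share. A probe set is called when its limma p, adjusted by the Benjamini-Hochberg method across the whole set of 24016, is below 0.05. A probe set below 4.62 on all 3 arrays of a group has only a bound there, and its difference is given as "at least". Arrays within a group correlated at 0.97 to 0.99. Cow C stood apart after LH for some genes, picked here after their values were seen. CYP11A1, HSD3B1 and OXT were highest in cow C among the 3 cows in theca, in membrane granulosa and in antral granulosa. STAR was too, but in theca its level was almost the same in cow A. For the 15 genes with the largest excess in theca the median difference was 7.19 for cow A, 7.06 for cow B and 4.79 for cow C, and cow C had the smallest difference for all 15. Its antral array was the highest of the 3 for 14 of those genes.

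Theca and antral granulosa differed at 8706 of 24016 probe sets (36.3%), of which 3773 (15.7%) were higher in theca and 4933 (20.5%) lower. The difference had 1 sign in all 3 cows for 8564 of them. The calls rest on the mean of these same differences, so this is no separate support. The 3 theca arrays and the 3 antral arrays did not overlap at 41.9% of probe sets, 15.9% with theca above and 26% with theca below. The large differences lay on the theca side: 143 probe sets were called at 16-fold or more higher in theca and 0 at 16-fold or more lower, against 1818 and 1160 at 2-fold or more. The largest excess in theca was 8.06 and the largest deficit -3.83. At a raw p below 0.05 the count was 10930. Leaving out cow A gave 5203 calls, leaving out cow B gave 5090 and leaving out cow C gave 8085. The median difference over all probe sets was -0.11. Under quantile normalization it was -0.079, and with each array centred on its median -0.181. With 1 probe set per gene symbol, the one with the highest mean, 3864 of 9155 genes (42.2%) were called, 2031 (22.2%) higher and 1833 (20%) lower, with a median of -0.05. Gene lists below are to be read beside these shares of 22.2% and 20%. Some lists held counts near them: steroid synthesis (4 higher and 5 lower of 20), hormone receptors (4 and 3 of 18) and cell junctions (5 and 3 of 21). By their counts these lists did not stand out from all genes. Of 20 cholesterol genes 5 were higher, also near the share. In such bulk samples fewer cells of a type and less RNA per cell cannot be told apart.

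**Figure D1:**
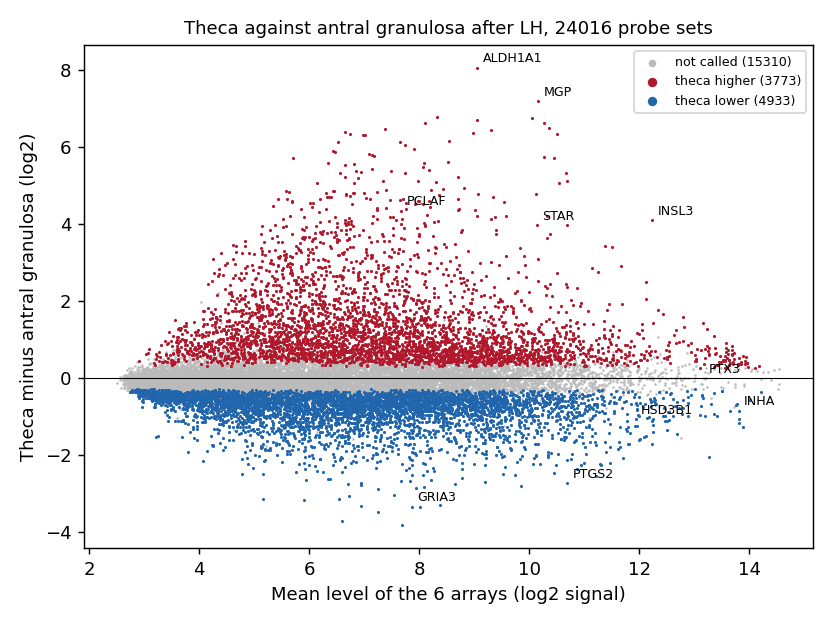
Each point is 1 of 24016 probe sets, with the mean log2 signal of the 6 arrays on the horizontal axis and theca minus antral granulosa (log2) on the vertical axis. Red and blue points are called at an adjusted p below 0.05; the red ones reach 8.06 while the blue ones stop at -3.83.

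Theca after LH was led by ALDH1A1, an enzyme of retinoic acid synthesis. Its level in cows A, B and C was 13.51, 13.58 and 12.17 in theca and 4.05, 5.76 and 5.28 in antral granulosa, a difference of 8.06 ± 0.69 (adjusted p = 8.36e-06, limma). The groups lie far apart on every array, and groups without overlap were a condition for the 15 largest differences named here. Membrane granulosa of the same follicles lay between them at 10.73, 11.15 and 10.28. MGP, an inhibitor of calcification in matrix, followed with 13.96, 13.78 and 13.52 in theca against 6.09, 4.19 and 9.43 in antral granulosa (7.18 ± 0.75, adjusted p = 2.43e-05). A second, dimmer MGP probe set went the other way, with means of 4.79 in theca and 6.43 in antral granulosa (-1.64 ± 0.20, adjusted p = 6.61e-05), so the 2 probe sets disagree in direction. The lipid carrier APOD (6.75 ± 0.60) and the matrix protein SPARCL1 (6.63 ± 0.69) came next. The other genes among the 15 largest were ACTA2, COL3A1, NID1, OGN, COL12A1, COL15A1, ADAMDEC1, CAVIN2, CXCL10, C1S and RGS5. In 7 of these 15 (NID1, OGN, ADAMDEC1, CAVIN2, CXCL10, C1S and RGS5) antral granulosa was below 4.62 on all 3 arrays.

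**Figure D2:**
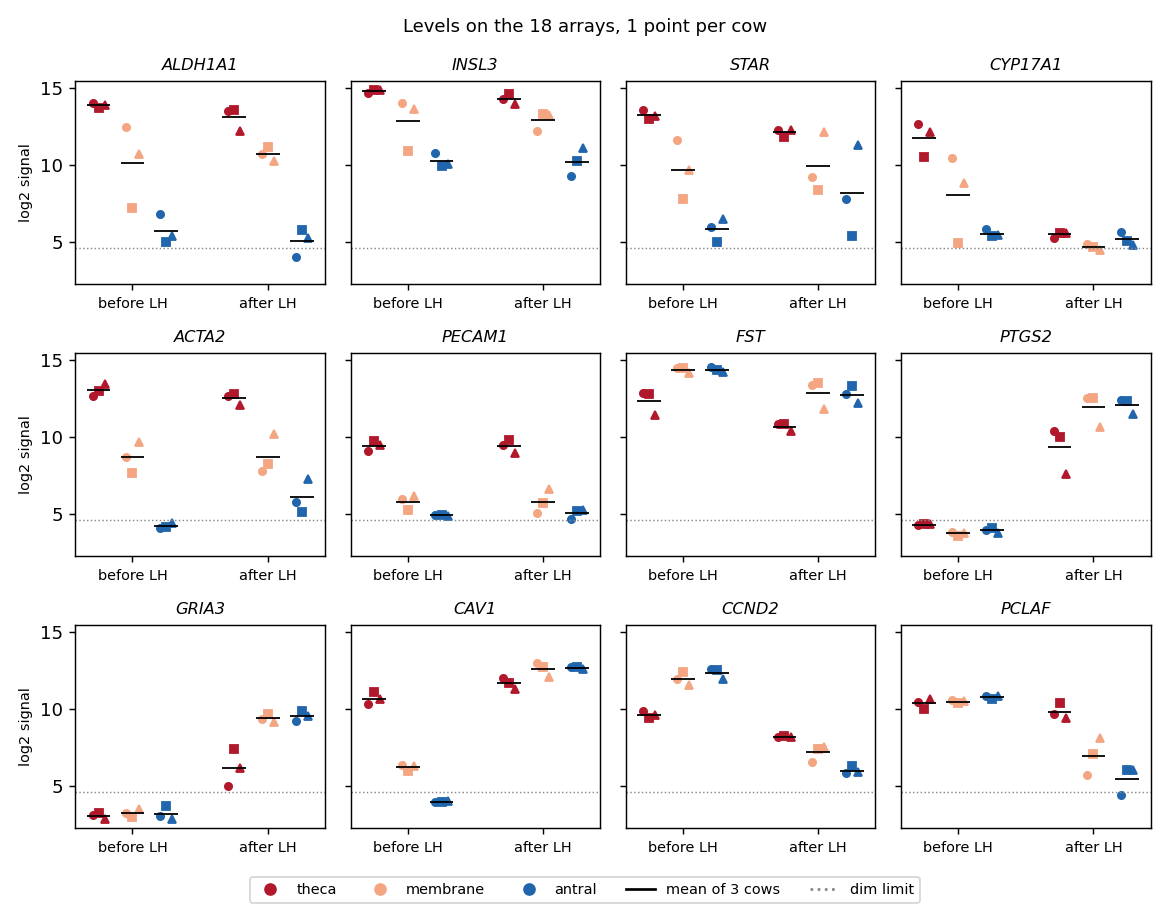
Log2 signal of 12 genes on the 18 arrays, before LH (cows D, F and G) and after LH (cows A, B and C), with theca in red, membrane granulosa in orange and antral granulosa in blue. Bars are means of 3 cows and the dotted line is the limit of 4.62; ALDH1A1 and INSL3 stay high in theca at both times, CYP17A1 is near the limit everywhere after LH, and CCND2 changes sides.

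Of 19 fibrillar collagens and collagen-processing genes 14 were higher in theca and 1 lower, with a median of 2.63. COL3A1, a fibrillar collagen of soft tissue, was 13.83, 13.71 and 13.52 in theca and 6.18, 6.19 and 9.67 in antral granulosa (6.34 ± 0.68, adjusted p = 3.1e-05). The antral array of cow C was far above those of cows A and B. COL1A2 differed by 5.74 ± 0.54, COL12A1 by 6.15 ± 0.48 and COL5A2 by 4.75. A dim probe set of COL12A1 near the limit was not called (-0.24, adjusted p = 0.152). The collagen cross-linking enzymes LOXL4 and LOXL1 were 5.09 and at least 4.10 higher, and the collagen chaperone SERPINH1 was 1.06 ± 0.14 higher. LOXL4 had been only 1.95 higher before LH, and its difference grew by 3.14 ± 0.63 (adjusted p = 0.00603). The gene lower in theca was PLOD1, a lysyl hydroxylase (-0.68), whose call was lost without cow A or cow B.

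Among 33 small proteoglycans and matricellular proteins 20 were higher in theca and 3 lower, with a median of 2.12. OGN, a leucine-rich proteoglycan, was 10.81, 10.49 and 9.11 in theca and 3.58, 3.87 and 4.05 in antral granulosa, which gives a difference of at least 5.51. DCN, which binds collagen fibrils and growth factors, differed by 5.05 ± 0.44, LUM by 3.98 ± 0.35 and CCN2, a growth factor-induced matricellular protein, by 5.31 ± 0.39. The 3 lower in theca were THBS1, TNC and VCAN. Without cow A or cow B, 1 of these 3 calls held. TNC, an adhesion-modulating glycoprotein, was 8.68, 8.07 and 9.05 in theca and 10.81, 9.86 and 9.63 in antral granulosa (-1.50 ± 0.36, adjusted p = 0.00668), after at least 2.24 higher in theca before LH.

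Basement membrane genes divided into some far higher in theca and some close to equal. Of 13 measured, 9 were higher in theca and 0 lower, with a median of 1.90. NID1, which links laminin to collagen IV, was 10.14, 10.15 and 9.44 in theca and below 4.62 on every antral array, a difference of at least 5.29. EMILIN1 differed by 4.18, the laminin chain LAMB1 by 3.17 and SPARC, a collagen-binding glycoprotein, by 2.49. The collagen IV chain COL4A1 differed by 0.94 ± 0.15 (adjusted p = 0.000369). NID2, the paralogue of NID1, was 12.64, 12.68 and 13.30 in theca and 11.32, 11.30 and 12.84 in antral granulosa. These groups overlap in part, and the difference of 1.05 ± 0.50 was not called (adjusted p = 0.123), although it was called in a fit on these arrays alone (adjusted p = 0.0133).

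Proteases and their inhibitors were higher in theca in 12 of 30 genes and lower in 4, with a median of 0.26. MMP2, a gelatinase, was 9.97, 9.52 and 8.59 in theca and below the limit on all antral arrays (at least 4.74). The inhibitor TIMP3 was 2.51 higher and PCOLCE, which speeds procollagen cleavage, 2.10 higher. PLAT, tissue plasminogen activator, was lower in theca, with 12.22, 11.51 and 11.39 against 12.54, 12.62 and 12.18 (-0.74 ± 0.20, adjusted p = 0.0115). This call was lost without cow B (adjusted p = 0.116). Leaving out any 1 cow left 2 lower calls.

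Markers of vessels, smooth muscle, fibroblasts and leukocytes moved with these groups. Their part in the matrix results was not tested. Of 19 fibroblast and stromal markers 15 were higher in theca and 1 lower, with a median of 4.13. Their summed level was 15.77 to 16.08 in theca, 14.32 to 15.17 in membrane granulosa and 13.35 to 13.76 in antral granulosa. The lower one was THY1 (-1.14), not called without cow B. Several members also belong to the collagen and proteoglycan lists.

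Smooth muscle and pericyte markers were higher in theca in 12 of 15 and lower in 0, with a median of 2.44. ACTA2, smooth muscle actin, was 12.69, 12.81 and 12.06 in theca and 5.81, 5.15 and 7.27 in antral granulosa (6.44 ± 0.51, adjusted p = 6.04e-06). RGS5, a pericyte regulator of G proteins, was at least 5.42 higher, smooth muscle myosin MYH11 3.79 higher and TAGLN 4.60 higher. The summed level of the list was 13.81 to 14.53 in theca, 11.75 to 12.54 in membrane and 11.10 to 11.98 in antral granulosa.

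Of 23 endothelial markers 18 were higher in theca and 0 lower, with a median of 2.99, or 2.44 with 7 members at their bounds. PECAM1, an adhesion molecule of endothelium, was 9.50, 9.80 and 8.97 in theca and 4.70, 5.18 and 5.29 in antral granulosa (4.37 ± 0.33, adjusted p = 5.39e-06). CDH5, the junction cadherin of endothelium, was 8.42, 8.36 and 7.88 in theca and below 4.62 in all antral samples, a difference of at least 3.60. Claudin CLDN5 differed by 4.21 and ROBO4 by 3.20. VWF, stored in endothelial granules, was dim, at 5.21, 4.75 and 4.93 in theca and below the limit in antral granulosa (at least 0.34). FLT1, a receptor for VEGF, differed by 0.21 (not called) after at least 2.74 before LH. The summed endothelial level was 12.27 to 12.94 in theca and 9.37 to 9.60 in antral granulosa, where 9 of the 23 markers were below the limit on all 3 arrays.

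Leukocyte markers were higher in theca in 15 of 30 and lower in 0, with a median of 1.05. This count fell to 5 without cow A and to 6 without cow B. LCP1, an actin bundler of blood cells, was at least 2.04 higher. AIF1, a macrophage protein, was 9.65, 9.82 and 8.74 in theca and 6.75, 7.45 and 7.70 in antral granulosa (2.10 ± 0.45, adjusted p = 0.00309, and 0.051 without cow A). The T cell genes CD3D, CD3E and CD3G were not called. Red cell and platelet markers were dim in both (summed level 7.11 to 7.30 in theca and 7.11 to 7.36 in antral granulosa), with 1 of 9 higher, PF4, and 1 lower, AHSP (lost without cow A or cow B).

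Complement and antigen presentation genes were higher in theca in 21 of 28, with 0 lower and a median of 2.03. C1S, a protease of the classical pathway, was 10.62, 10.01 and 9.37 in theca and below 4.62 on the antral arrays (at least 5.37). Its partner C1R was 3.52 higher and the terminal component C7 5.53 higher. The immunoproteasome subunit PSMB9 was 2.32 higher. Members that leukocytes also express were in this list, so it is not separate from the leukocyte markers. In cow C the median difference of the list was 1.13, while cows A and B had 2.49 and 2.27.

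Of 32 cytokines and chemokines 10 were higher in theca and 4 lower, with a median of 0.24. CXCL10, an interferon-induced chemokine, was 9.45, 10.27 and 8.53 in theca and below the limit in antral granulosa (at least 4.79). CXCL5 was at least 1.54 higher and the interleukin receptor IL1R1 at least 1.67 higher. TNFRSF6B, a decoy receptor of the TNF family, was on the granulosa side, with 8.58, 8.44 and 8.47 in theca and 10.34, 10.45 and 10.65 in antral granulosa (-1.99 ± 0.24, adjusted p = 6.02e-05). Counts of this list moved with the cow: 6 higher without cow B and 2 lower without cow A.

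Of 20 steroid synthesis genes 4 were higher in theca and 5 lower, with a median of -0.09, which became 0.06 without cow B. The count of lower ones fell to 1 without cow A and 2 without cow B. INSL3, the relaxin-like peptide of theca cells, was 14.31, 14.60 and 13.95 in theca, near the top of the scale, and 9.28, 10.24 and 11.08 in antral granulosa (4.09 ± 0.53, adjusted p = 0.000102). Levels near the top can understate a difference. STAR, which carries cholesterol into mitochondria, was 12.28, 11.82 and 12.29 in theca and 7.77, 5.41 and 11.32 in antral granulosa (3.96 ± 0.80, adjusted p = 0.00213). The groups did not overlap, but the gap was 4.50, 6.41 and 0.97 in cows A, B and C. CYP11A1, which makes pregnenolone from cholesterol, was 10.77, 10.74 and 12.92 in theca and 9.16, 6.38 and 11.76 in antral granulosa. These groups overlap across cows while each cow had more in theca (2.38 ± 0.50, adjusted p = 0.00295), and the call was lost without the cow as a block (adjusted p = 0.161).

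HSD3B1, which turns pregnenolone into progesterone, was 11.06, 9.66 and 13.50 in theca and 12.66, 11.34 and 13.42 in antral granulosa, with nearly equal levels in cow C (-1.06 ± 0.30, adjusted p = 0.0161). This call was lost without cow A (0.170), without cow B (0.168) and without the block (0.389). CYP17A1, the enzyme of androgen synthesis that marks theca before LH, was 5.28, 5.57 and 5.61 in theca and 5.65, 5.06 and 4.78 in antral granulosa. The groups overlap and the difference of 0.32 ± 0.66 was not called (adjusted p = 0.733). The brightest CYP19A1 probe set, for aromatase, was below 4.62 on all 6 arrays, and another was below it on 5 of the 6; HSD17B1 was not called (-0.49 ± 0.29, adjusted p = 0.207). The other called steroid synthesis genes with the smallest p were SULT1A1, a sulfotransferase (1.87), the nuclear receptor NR0B1 (at least 1.52) and POR, the electron donor of P450 enzymes (-1.42).

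Cholesterol genes were mostly not called: 5 of 20 were higher in theca and 0 lower, with a median of -0.15. SCARB1, the receptor that takes up cholesterol from HDL, was 12.93, 12.28 and 12.72 in theca and 9.52, 10.98 and 11.68 in antral granulosa (1.92 ± 0.37, adjusted p = 0.00178). The other calls were below 0.8, and without cow B 1 call remained. Without cow C 5 of the 20 were lower in theca.

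Of the receptors of the gonadotropins FSH and LH, that of FSH was called and that of LH was not. FSHR, the receptor of follicle-stimulating hormone, was 4.21, 4.69 and 3.87 in theca and 6.18, 6.43 and 5.80 in antral granulosa (-1.88 ± 0.28, adjusted p = 0.000278), with little spread among cows. LHCGR, the LH receptor, was 5.57, 6.08 and 5.43 in theca and 5.14, 5.24 and 5.05 in antral granulosa. These groups did not overlap, yet the difference of 0.55 ± 0.32 was not called (adjusted p = 0.209, and 0.0402 in a fit on these arrays alone). The dimmer LHCGR probe sets were below 4.62 on all arrays of both layers. Of 18 hormone receptors 4 were higher in theca and 3 lower, and leaving out any 1 cow left 1 lower call. PTGER4, a receptor of prostaglandin E2, was at least 1.91 higher in theca and the glucocorticoid receptor NR3C1 1.20 higher. The 4 measured Hedgehog genes, whose signal passes from granulosa to theca, held 1 call, the co-receptor BOC (0.59), lost without any 1 of the cows.

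Granulosa identity was seen in 8 of 15 markers lower in theca and 1 higher, with a median of -0.85. FST, follistatin, which binds activin, was 10.82, 10.81 and 10.37 in theca and 12.76, 13.28 and 12.18 in antral granulosa (-2.08 ± 0.26, adjusted p = 9.26e-05). AMH was 5.40, 6.12 and 5.16 in theca and 7.64, 7.96 and 7.30 in antral granulosa (-2.07 ± 0.26, adjusted p = 9.12e-05). INHBA, the inhibin beta A chain, differed by -2.01 ± 0.33 and INHA, the alpha chain, by -0.85 ± 0.12, with antral levels of INHA of 14.19 to 14.29 near the top of the scale. Groups did not overlap for FST, AMH and INHA, while INHBA of theca in cow B (8.38) met that of antral granulosa in cow C (8.38). The summed granulosa marker level was 14.76 to 14.96 in theca and 15.45 to 15.77 in antral granulosa, so the 2 differed by less than the stromal or vascular sums. Signal of genes on the granulosa list was thus present in the theca samples, in a sum that the brightest members dominate. In theca 3 of the 15 were below the limit on all 3 arrays, as were 3 in antral granulosa. Which cells this signal came from was not tested. Nor was its part in the small size of the granulosa-side differences. Of 9 theca cell markers 5 were higher in theca and 0 lower, with a median of 2.54. The other 4, CYP17A1 among them, were not called. The summed theca marker level was 14.73 to 15.40 in theca, 13.02 to 13.97 in membrane and 10.58 to 12.36 in antral granulosa.

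The same families held members on the theca side. Of 25 inhibin, activin and BMP signalling genes 8 were higher in theca and 7 lower, with a median of 0.15. The TGF-beta receptor TGFBR2 was 10.09, 9.87 and 9.74 in theca and 6.96, 7.04 and 6.75 in antral granulosa (2.98 ± 0.34, adjusted p = 4.29e-05). ID3, a transcriptional target of BMP, was 2.00 ± 0.22 higher and the receptor ACVR1 1.77 ± 0.20 higher. Receptors and ligands fell on both sides: among members picked after their values were seen, the receptor BMPR2 was lower in theca (-1.11, not called without cow B) and the ligand BMP4 higher (0.90, not called without cow C).

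The 15 genes with the largest deficit in theca were GRIA3, APOA2, CABYR, SLC27A2, HS3ST5, PTGS2, TOX, RBM24, NDP, GK, PTGES, LRIG3, RUBCNL, WASF1 and PKP2. GRIA3, a glutamate receptor subunit, was 5.0, 7.44 and 6.17 in theca and 9.24, 9.86 and 9.54 in antral granulosa (-3.35 ± 0.33, adjusted p = 1.73e-05). It was below 4.62 in both layers before LH. APOA2, a lipoprotein component, was 6.79, 7.59 and 5.81 against 9.82, 10.38 and 9.91 (-3.31 ± 0.38), and CABYR, a calcium-binding protein known from sperm, 5.65, 5.76 and 4.17 against 8.76, 8.70 and 7.32 (-3.07 ± 0.20). In theca 12 of the 15 were lowest in cow C. The fatty acid transporter and ligase SLC27A2 (-2.88), the glycerol kinase GK (-2.63), the WNT pathway ligand NDP (-2.64) and the desmosome protein PKP2 (-2.43) lay in the same range. Membrane granulosa lay near antral granulosa for these: GRIA3 was 9.34, 9.70 and 9.19 there, and CABYR 7.67, 8.16 and 6.81. For the 15 genes with the largest excess in theca, membrane granulosa lay between the layers instead, as for COL3A1 at 11.03, 11.35 and 12.92.

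**Figure D3:**
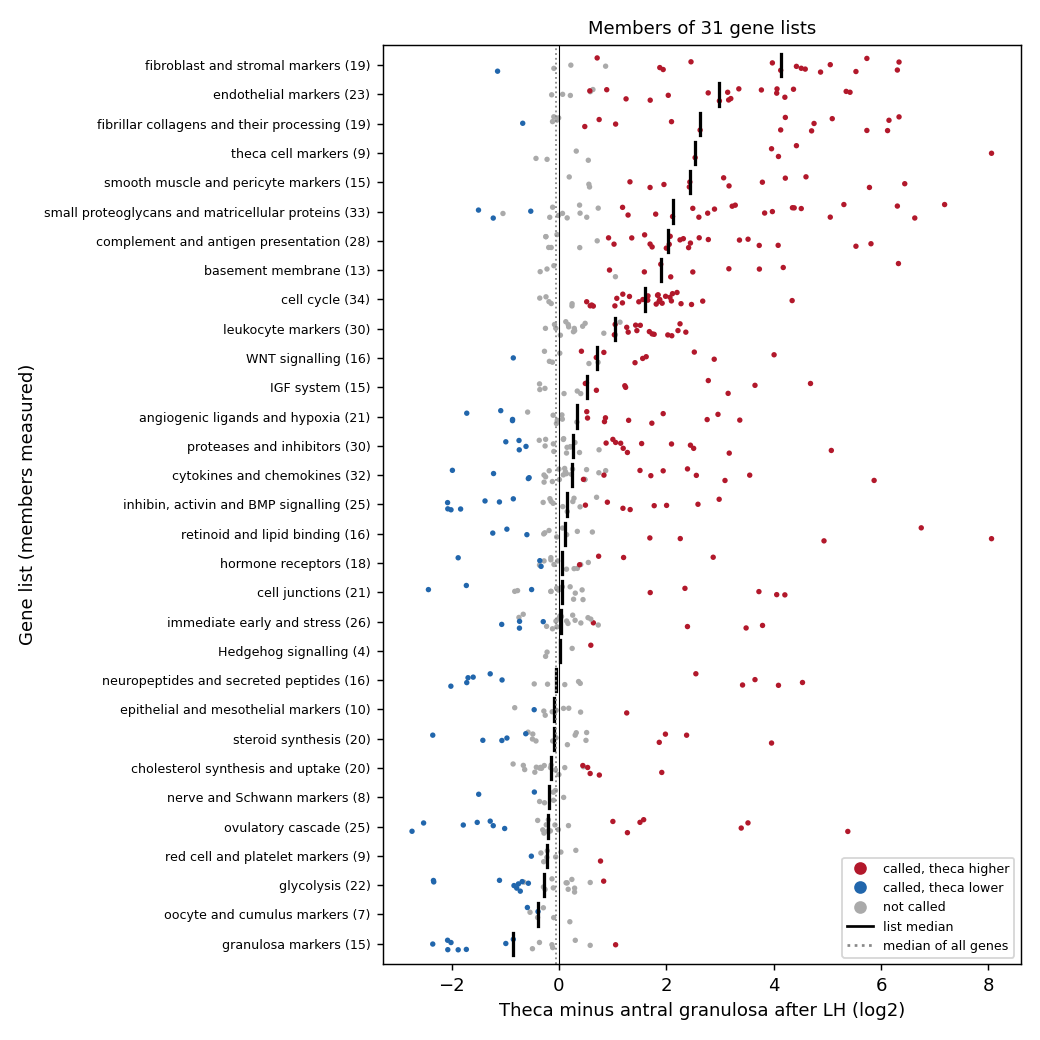
Theca minus antral granulosa after LH (log2) for the measured members of 31 gene lists, ordered by list median (black bar), with red for called and higher in theca, blue for called and lower, and grey for not called. Fibroblast, endothelial and collagen lists lie to the right, with medians of 4.13, 2.99 and 2.63, and granulosa markers to the left at -0.85.

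The prostaglandin enzymes PTGS2 and PTGES were lower in theca and HPGD was higher. PTGS2, the inducible cyclooxygenase, was 10.40, 9.98 and 7.61 in theca and 12.41, 12.31 and 11.47 in antral granulosa (-2.74 ± 0.26, adjusted p = 1.5e-05). A second PTGS2 probe set, with means of 5.78 in theca and 9.61 in antral granulosa, gave -3.83 ± 0.35 (adjusted p = 1.14e-05), and the third, below 4.62 in both layers, -0.17. PTGES, which makes prostaglandin E2, was 8.65, 9.27 and 7.52 in theca and 11.09, 11.30 and 10.61 in antral granulosa (-2.52 ± 0.31, adjusted p = 8.17e-05). HPGD, which inactivates prostaglandins, was 7.34, 7.38 and 6.12 in theca and below the limit on all antral arrays, at least 2.33 higher in theca. Groups of PTGES, HPGD and the brightest PTGS2 probe set did not overlap. A dim HPGD probe set was below the limit in both.

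Cumulus matrix genes had high levels in both layers. PTX3, which stabilises hyaluronan matrix, was 13.52, 12.62 and 13.34 in theca and 13.22, 13.11 and 13.18 in antral granulosa, with overlap (-0.01 ± 0.24, adjusted p = 0.976). TNFAIP6, which links hyaluronan to its proteins, was 13.47, 12.98 and 13.27 in theca and 14.56, 14.51 and 14.49 in antral granulosa (-1.28 ± 0.42, adjusted p = 0.0316). Its groups did not overlap, and the call was lost without any 1 cow (adjusted p = 0.0964 to 0.175) and without the block (0.131). A second TNFAIP6 probe set gave -2.04 ± 0.44 (adjusted p = 0.00312).

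Proteases that cleave versican and other matrix differed in size. ADAMTS4 was 11.72, 9.23 and 9.59 in theca and 4.45, 3.90 and 6.04 in antral granulosa (5.38 ± 0.53, adjusted p = 1.73e-05). ADAMTS1 was 11.88, 10.83 and 11.24 against 10.71, 10.02 and 10.21 (1.00 ± 0.22, adjusted p = 0.00388), and a second, dimmer ADAMTS1 probe set gave 1.89. TIMP1, a tissue inhibitor of metalloproteinases, was 1.28 ± 0.26 higher. Of the 25 genes of the ovulatory cascade 7 were higher in theca and 7 lower, with a median of -0.20, and 4 were lower without the block.

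Secreted peptides went both ways, with 5 of 16 higher in theca and 6 lower (median -0.05). Endothelin EDN1, a vasoconstrictor, was 8.07, 9.28 and 7.65 in theca and below 4.62 on all antral arrays (at least 3.71). STC1, a calcium- and phosphate-regulating hormone, was 3.65 ± 0.43 higher. OXT, oxytocin, was 9.89, 9.33 and 14.36 in theca and 12.48, 11.75 and 14.16 in antral granulosa. Theca was lower in cows A and B and higher by 0.20 in cow C (-1.60 ± 0.41, adjusted p = 0.00928), and the call was lost without cow A (0.128), without cow B (0.122) and without the block (0.254). Without cow C the OXT difference kept its call. CHGB, a granule protein of peptide-secreting cells, differed by -1.69 ± 0.20.

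The IGF system was higher in theca in 8 of 15 genes and lower in 0, with a median of 0.51 (0.49 with bounds), and 5 were higher without cow A or cow B. The binding proteins led: IGFBP6, which prefers IGF2, was 11.99, 12.24 and 10.84 in theca and 7.43, 6.41 and 7.17 in antral granulosa (4.69 ± 0.43, adjusted p = 1.13e-05). IGFBP4 was 3.15 ± 0.35, IGFBP3 2.78 ± 0.31 and IGFBP7 1.24 higher. WNT genes were higher in 9 of 16 and lower in 1, with a median of 0.71 (0.64 with bounds). RSPO3, which strengthens WNT signals, was 9.53, 9.50 and 7.12 in theca and 4.58, 4.70 and 4.85 in antral granulosa (4.01 ± 0.53, adjusted p = 0.00012), and the receptors FZD1 and FZD4 were 2.89 and 1.56 higher.

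Of 16 retinoid and lipid binding genes 5 were higher and 3 lower (1 lower without cow A; median 0.10), led by ALDH1A1 and APOD, with RARRES1, a retinoid-responsive gene, 4.94 ± 0.68 higher. Angiogenic and hypoxia genes were higher in 10 of 21 and lower in 4 (median 0.33), with 5 higher without cow A and 2 lower without cow B. EPAS1, a hypoxia-inducible factor, was 11.32, 11.41 and 11.81 in theca and 7.49, 6.64 and 10.30 in antral granulosa (3.37 ± 0.57, adjusted p = 0.000688), while its paralogue HIF1A differed by -0.86. Junction genes were higher in 5 of 21 and lower in 3, with CDH5 and CLDN5 of endothelium on one side and PKP2 on the other. Immediate early and stress genes were called in 8 of 26, 4 each way (median 0.03), with KLF4 (3.79 ± 0.47), MYC (3.49 ± 0.60) and the haem-degrading HMOX1 (2.39 ± 0.37) higher in theca and HSPB1 (-1.07) lower. The lower count fell to 2 without cow A or cow C and to 1 without cow B or without the block. The sign of that median turned under both other scalings.

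Glycolysis genes were lower in theca in 9 of 22 and higher in 1, with a median of -0.27. The median was -0.47 in cow A, -0.16 in cow B and 0.01 in cow C, and 6 were lower without cow A. Before LH 15 were lower and 2 higher, with a median of -0.75, when 22.1% of all probe sets were lower. The change between the times was called upward in 9 and downward in 1, against 5.64% and 5.6% of all probe sets. ENO2, an enolase, was below 4.62 on all theca arrays and 6.24, 6.04 and 6.16 in antral granulosa, at least 1.52 lower in theca. SLC16A3, which exports lactate, was 6.57, 5.85 and 7.53 in theca and 9.41, 8.09 and 9.46 in antral granulosa (-2.34 ± 0.25, adjusted p = 2.95e-05). A dimmer SLC16A3 probe set, with means of 4.86 in theca and 5.12 in antral granulosa, was not called (-0.26, adjusted p = 0.317). Enolase ENO1 differed by -0.69 and the phosphofructokinase PFKM by 0.83.

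Cell division genes were higher in theca in 28 of 34 and lower in 0, with a median of 1.61. Before LH the same 34 genes held 3 higher and 18 lower, with a median of -0.75, at a time when 37.1% of all probe sets were called (14.9% higher and 22.1% lower). The change of the difference between the times was called up in 28 and down in 1, against 11.2% of all probe sets (5.64% up and 5.6% down). PCLAF, a clamp-associated replication factor, was 9.70, 10.41 and 9.41 in theca and 4.40, 6.06 and 6.03 in antral granulosa after LH (4.34 ± 0.36, adjusted p = 6.71e-06). Before LH it was 10.49, 10 and 10.67 in theca of cows D, F and G and 10.85, 10.68 and 10.87 in antral granulosa. The theca levels lay close at both times and the antral levels apart, though the times are from different cows and the step within a layer was not tested here. CCND2, the cyclin that drives granulosa division, was 8.18, 8.26 and 8.19 in theca and 5.83, 6.29 and 5.91 in antral granulosa after LH (2.20 ± 0.21). Before LH it was 9.89, 9.42 and 9.60 against 12.61, 12.56 and 11.95, so the layers changed order, and the change of 4.93 ± 0.30 was called (adjusted p = 2.93e-06). Without cow B, 3 of the 28 calls after LH were lost, those of AURKB, MCM6 and PLK1. CCND1 and CCND3, chosen here after their values were seen, were higher in theca at both times. The one member whose change was called downward was the cell cycle inhibitor CDKN1C, 4.42 before LH and -0.36 (not called) after.

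**Figure D4:**
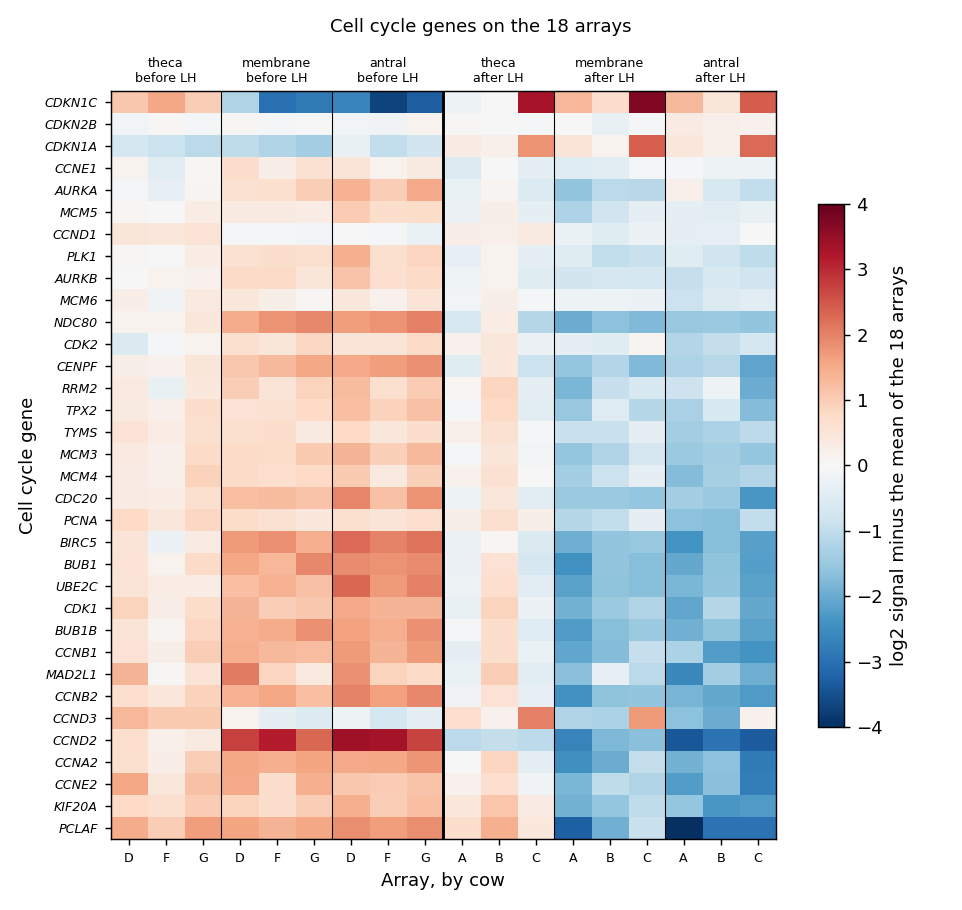
Log2 signal of the 34 measured cell cycle genes minus each gene's mean over the 18 arrays, with 1 column per array grouped by cell layer and time. Antral and membrane granulosa turn from red before LH to blue after LH for most genes, theca changes less, and CDKN1C runs the other way.

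The LH surge came with a change of the layer difference at 2698 probe sets (11.2%), 1354 upward and 1344 downward. Without cow B the count was 1753, and without the cow as a block it was 1485. Of the 8706 calls after LH 5223 (60%) were also called before LH, which is 58.7% of the 8899 calls before. Cows and arrays were different at the 2 times. The direction was the same in 4734 and opposite in 489, of which 286 were lower in theca before and higher after, and 203 the reverse. The theca side narrowed at its top: 233 probe sets were 16-fold or more higher in theca before LH against 143 after, and 104 were so at both times. Another 17 that were 16-fold higher before LH were within 2-fold after it.

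The 10 largest changes downward, ranked by the fitted change, were CAV1, CLDN11, NID2, DKK3, CYP17A1, TCIM, GNG2, RND3, TM4SF1 and SEPTIN4. CAV1, the coat protein of caveolae, was 10.32, 11.10 and 10.66 in theca and 3.95, 3.94 and 4.02 in antral granulosa before LH. After LH it was 12.01, 11.71 and 11.28 in theca and 12.71, 12.73 and 12.59 in antral granulosa, so theca became the lower layer (-1.01 ± 0.20, adjusted p = 0.00178). Antral CAV1 was below 4.62 on all 3 arrays before LH, so the change is given as a bound, -7.08 or further downward (adjusted p = 4.77e-08 for the fitted change). The antral level after LH was high in every cow. A second CAV1 probe set changed by -2.49 (adjusted p = 0.000288) and was not called after LH (-0.22). CLDN11, a claudin, went from at least 5.64 before LH to -0.77 ± 0.41 after (not called, adjusted p = 0.158) on its brightest probe set, a change of -6.42 or further downward. A second CLDN11 probe set went from 1.43 to 0.12, and its change of -1.32 was not called (adjusted p = 0.174). NID2 went from 7.76 to 1.05. On the brightest probe sets of these 3 genes the antral arrays after LH lay above all those before LH. CYP17A1 differed in theca instead: it was 12.67, 10.48 and 12.11 in theca before LH and 5.28, 5.57 and 5.61 after, with antral levels between 4.78 and 5.81 at both times. Its difference went from 6.21 to 0.32 (change -5.88 ± 0.93, adjusted p = 0.00122).

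The 10 largest changes upward were BHLHE40, CCND2, PCLAF, SRGN, GUCA1A, ADAMTS4, RASGEF1B, SLC7A5, SPP1 and BIRC5. SRGN, a granule proteoglycan, was 11.45, 11.43 and 10.49 in theca and 8.64, 9.41 and 8.59 in antral granulosa after LH (2.24 ± 0.29), and -2.29 before. SLC7A5, an importer of large amino acids, was 9.04, 8.47 and 8.62 in theca and 5.50, 5.56 and 6.32 in antral granulosa (2.92 ± 0.23), and -0.99 before. BHLHE40, a transcriptional repressor, was 8.89, 8.33 and 9.79 against 5.28, 3.22 and 8.71 (3.27 ± 0.64, adjusted p = 0.00172), with a call lost without the block (0.0634). GUCA1A was not called after LH (0.33 ± 0.43, adjusted p = 0.588) and was -3.97 before. SPP1 was not called after LH in this fit (1.35 ± 0.81, adjusted p = 0.22, and 0.00982 on these arrays alone), and its change of 3.89 (adjusted p = 0.0482) was lost without any 1 of cows A, B and C.

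**Figure D5:**
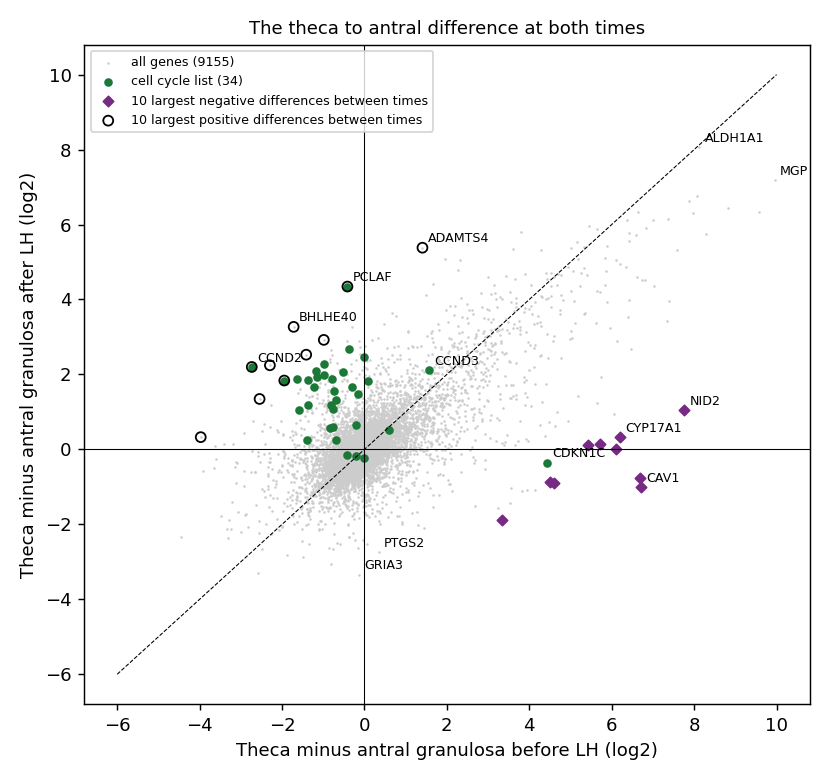
Theca minus antral granulosa (log2) before LH on the horizontal axis and after LH on the vertical axis, as fitted, for 9155 genes, 1 probe set each, with equality as the dashed line. Most cell cycle genes (green) lie above the line, and the 10 largest downward changes (purple diamonds), among them CAV1 and CYP17A1, lie far below it.

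Membrane granulosa, the granulosa left on the wall, differed from antral granulosa at 721 probe sets after LH (3%), 378 higher (1.57%) and 343 lower (1.43%), but at 5 without cow A, 0 without cow B and 280 without cow C. Without cow B, 3662 probe sets had a raw limma p below 0.05. ALDH1A1, INSL3 and COL3A1 were each between the layers in all 3 cows. ALDH1A1 and COL3A1 had been picked by their theca to antral difference, so their place between the layers is no separate support. Membrane was called higher than antral granulosa in 7 of 19 fibroblast and stromal markers and 2 of 9 theca cell markers. It was so in 0 of 23 endothelial markers, and none of these 3 lists held a lower call. The antral samples are also the reference of the theca comparison, so the 2 sets of values are given side by side and not compared.

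Markers of other cell types held few calls. Of 7 oocyte and cumulus markers 0 were higher in theca and 2 lower (MOS and GDF9, both within 0.6). Both calls were lost without cow A (adjusted p = 0.279 and 0.296) and without cow B (0.0607 and 0.0676). Of 8 nerve and Schwann markers 0 were higher and 2 lower, UCHL1 (-1.50 ± 0.15) and SOX10 (-0.46, lost without cow B). Epithelial and mesothelial markers held 1 higher in theca, KRT18, and 1 lower, KRT7 (lost without cow A or cow B). KRT18 was 7.75, 7.24 and 9.99 in theca and 6.99, 6.04 and 8.15 in antral granulosa, highest in cow C in both (1.26 ± 0.38, adjusted p = 0.0216), and its call was lost without cow B (0.0912) and without the block (0.301).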

How the data were processed

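Per the submitters' processing notes, the authors ran RMA in Partek 6.5, and its settings are not given in the sources used here. What was deposited is 1 log2 signal for each probe set and array, and no counts or detection calls come with them. The number of arrays limits the precision.

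The 112 control probe sets were left out of 24128, and the rest were fitted together on all 18 arrays (limma 3.58.1, lmFit and eBayes, under R 4.3.3). The fit held a mean per layer and time and the cow as a fixed block, with 8 residual and 4.28 prior degrees of freedom. After removing group means, theca and antral granulosa of the same cow correlated at 0.335, 0.315 and 0.427 after LH. The pairing comes from the cow letters in the labels. Each layer of a follicle is 1 array. With the cow as a block, p-values rest on how far the differences within a cow vary from cow to cow. That spread is shared by the 6 groups.

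The platform annotation, which can be old, gives 1 gene symbol to 13292 probe sets, several to 86 and none to 10638. Of the first, 13263 matched the RefSeq table by gene ID and 0 symbols changed. Where a gene has several probe sets, the one brightest on average stands for it. The limit of 4.62 bounds the dimmest part of the table, 8005 probe sets by mean.

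Of 730 genes in 31 lists 549 were measured, and 10 of the lists are cell type markers. Named are the 15 largest called differences each way whose groups do not overlap, the 10 largest changes each way between the times, for each list at most 4 members ranked by adjusted p, and genes of follicle function. THY1, THBS1, TNC, VCAN, PLOD1, FLT1, the CD3 genes, AURKB, MCM6, PLK1, CCND1, CCND3, CDKN1C, BMPR2 and BMP4 were named after their values were seen. The members, lists and rules were chosen with earlier results of these data known.

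On simulated data with these arrays' spread, log2 differences of 0.5, 1, 2 and 4 between theca and antral granulosa after LH, in 50 probe sets each of 24016, were found in 10%, 68%, 96% and 100%, with 4 false among 141 calls. Far fewer probe sets differed there than the 36.3% called in the data, and the adjusted p depends on that share. The rates found are thus not those of the real comparison. Alternatives were quantile normalization, centring on array medians, leaving out dim probe sets, a single probe set per gene, a trended and robust eBayes, a minimum of 2-fold, the compared arrays alone, other blocks and each cow left out. Figures used matplotlib 3.10.9.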

Additional observations from a re-analysis of the deposited data

Results flagged for a closer look

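The theca to antral granulosa difference after LH differed from that before LH at 2698 of 24016 probe sets, by the test of the change itself (limma, adjusted p below 0.05). The cows of the 2 times are different animals. Values below are the change of the difference (after minus before LH, log2) for genes named above. Where a layer was below 4.62 on all its arrays, the fitted change is not a bound. This holds for antral granulosa before LH in CAV1, CLDN11, DKK3, TCIM, TM4SF1 and PTX3, whose changes were at least as far down as -7.08, -6.42, -5.38, -4.40, -4.77 and -1.80. It holds for antral C1S after LH, with a change of at least 1.58. GRIA3, PTGS2, NDP and RUBCNL were below the limit in both layers before LH, and CABYR in theca, so no bound can be given.

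Among genes lower in theca after LH, the change was -3.22 in GRIA3 (from -0.13 to -3.35), -3.08 in PTGS2 (from 0.34 to -2.74), -2.57 in RUBCNL, -2.49 in NDP and -2.25 in CABYR. It was -1.92 in PTGES, -1.89 in RBM24, -1.84 in WASF1, -1.76 in GK and -1.17 in LRIG3. The fitted differences of these 10 genes before LH ran from -1.35 (LRIG3) to 0.34 (PTGS2). For GRIA3, PTGS2, NDP, RUBCNL and CABYR they rest on levels below 4.62, so their size then was not measured.

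Theca gained on antral granulosa by 4.99 in BHLHE40, 4.93 in CCND2, 4.76 in PCLAF, 4.54 in SRGN, 4.30 in GUCA1A, 3.97 in ADAMTS4, 3.94 in RASGEF1B, 3.91 in SLC7A5, 3.89 in SPP1 and 3.78 in BIRC5. Smaller gains were 3.14 in HSD17B1 (from -3.64 to -0.49), 2.57 in CYP11A1 (from -0.20 to 2.38), 2.01 in C1S and 1.40 in FSHR (from -3.28 to -1.88). For FSHR the layers kept their order, while for CCND2, SRGN and BIRC5 they changed it.

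Theca lost ground by -7.73 in CAV1, -7.47 in CLDN11, -6.71 in NID2, -6.10 in DKK3, -5.88 in CYP17A1, -5.56 in TCIM, -5.49 in GNG2, -5.36 in RND3, -5.31 in TM4SF1 and -5.23 in SEPTIN4. For SEPTIN4, a septin, theca was 3.34 higher before LH and differed by -1.89 after. The change was -3.67 in ADAMTS1 (from 4.67 to 1.00), -3.04 in TIMP1 (from 4.32 to 1.28) and -2.58 in PTX3 (from 2.56 to -0.01). A second ADAMTS1 probe set went the other way, from 1.33 to 1.89, a change of 0.56 that was not called (adjusted p = 0.449). The change was -2.55 in COL1A2, -1.16 in PLAT and -0.82 in COL4A1.

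Of these, the calls of SPP1, COL1A2, FSHR and LRIG3 were lost without any 1 of cows A, B and C, those of C1S and COL4A1 without cow A or cow B, that of PTGES without cow A or cow C, and those of CYP11A1 and PLAT without cow B. Without the cow as a block 12 of the 40 calls were lost: C1S, RBM24, PTGES, LRIG3, WASF1, FSHR, ADAMTS4, BHLHE40, SPP1, CYP11A1, PLAT and COL1A2. With the cow as a random block 6 were lost, on the compared arrays alone 5, and with a trended and robust eBayes 3. CYP11A1 was among the lost in each of these.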

How the results depend on the processing

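The cows carry a pairing by letter, and the fit without the replicate block called 6853 probe sets between theca and antral granulosa after LH against 8706 with it. Without the block the change between the times was called at 1485 and membrane against antral granulosa at 297. With 1 probe set per gene the counts were 3990 after LH, 3902 before LH, 1506 for the change and 339 for membrane against antral granulosa, out of fewer features tested. A 2-fold minimum left 2978 after LH, 3251 before LH and 162 for membrane against antral granulosa. With no fold minimum, membrane against antral granulosa had 1226 calls on the compared arrays alone, against 721 in the main fit. Leaving out each cow gave 5090 to 8085 after LH (5203 without cow A), 6175 to 7349 before LH, 1753 to 2401 for the change and 0 to 280 for membrane against antral granulosa. The cause of these shifts was not tested, other than the fewer samples or features.

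Of 167 named genes 144 were called, and 124 kept their direction and call in each fit that held them and without each cow. Of these, 117 were among the 150 left after the dim filter and 116 passed a 2-fold minimum. Another 3 lost the call only when a cow was left out. The sign turned in 5 that were not called: DKK3 to -0.019 (quantile), -0.052 (centred) and -0.376 (without cow B), TCIM to -0.47 (without cow B), TM4SF1 to -0.042 (without cow A) and -0.06 (without cow B), CYP19A1 to 0.11 and PTX3 to 0.23 (both without cow B). In the simulation, where far fewer probe sets differed than in the data, log2 differences of 0.5 were found in 10%. Levels near 14.9 or below 4.62 limit what the arrays can show.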
